A study of Mus musculus with 12 samples.

Results

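Tumors from mice taken off doxycycline (dox) for 3 days were compared, gene by gene, with tumors from mice that never received dox. The comparison takes 8 of the 12 tumors of the series, 4 off-dox and 4 no-dox. It asks how far tumors whose hosts once had dox resemble tumors whose hosts never did. The members are the genes whose mean RPKM (reads per kilobase of exon, scaled to the mapped reads of the library, a level corrected for gene length) exceeded 0.25 over these 8 tumors. This held for 14549 of the 22630 genes in the files, and 14317 of them also had exons totaling more than 250 bases and at least 10 reads summed over the 12 tumors.

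All tumors grew under the skin of NSG mice, 8 to 10 weeks of age, from 500000 cells of KCip53-1, a mouse pancreatic cancer cell line. The line was derived from an animal whose genotype included Ptf1a-Cre, TREp53R270H and R26rtTa/rtTa, in which Cre made in the pancreatic epithelium turns on the dox-dependent transactivator rtTa. These alleles were present in every tumor. Drinking water with dox at 0.2 g/l and 5% sucrose induces mutant p53R270H together with the reporter dsRed. Sucrose at 5% is recorded for the no-dox tumors as well. Per the study, the KCip53 lines were sorted for dsRed and grown in culture with dox. The no-dox tumors thus also descend from cells that had carried induced mutant p53, and no-dox refers to the time in the mouse. No-dox mice had 0 days of dox, off-dox mice had 33 days followed by 3 days without, and the 4 plus-dox tumors, used here for reference, had 36 days. These times are those of the labels, whereas the study's text ties the removal of dox to the point at which tumors could be felt, and which holds for these tumors was not settled. A mouse bore a pair of tumors, and no label ties tumors to mice, so some tumors may share a host and the p values, which measure the spread between these tumors, may be too small. NSG mice lack mature T, B and NK cells but keep neutrophils, monocytes and macrophages.

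p53 is a transcription factor that restrains growth after stress by turning on genes of cell cycle arrest and cell death. Missense mutants such as p53R270H lose much of that activity and can interfere with the wild-type protein, and they are among the most common lesions of pancreatic ductal adenocarcinoma. Bulk tumor RNA mixes the cancer cells with host fibroblasts, immune cells, vessels and invaded tissue.

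The 12 libraries held 19845923 to 33137609 reads counted on genes. The 4 no-dox libraries had 25673348 to 33137609 and the 4 off-dox libraries 19845923 to 25088486. Mapped reads overlapped, at 28776333 to 37070491 without dox and 24190378 to 29990079 off dox, whereas reads counted on genes did not. The share of mapped reads that fell on annotated exons also did not overlap: it ran from 88.4% to 89.4% without dox and from 81.1% to 85.8% off dox, a difference of -5.86 percentage points with p = 0.029 by a two-sided exact permutation test (no smaller p can arise from groups of 4). In plus-dox tumors this share was 82.2% to 87.1%. Off-dox tumor 4 stood apart on the first principal component of the 8 tumors (43.9% of the variance) and off-dox tumor 3 on the second (23%). The root mean square distance on the log2 scale averaged 0.72 among off-dox tumors, 0.56 among no-dox tumors and 0.70 between the groups. Epithelial markers were present in all 8 tumors, with Krt8 at 830, 966, 935 and 972 RPKM in the no-dox tumors and 810, 525, 318 and 525 in the off-dox tumors. Ptf1a, the acinar factor that drove Cre in the animal of origin, was at 0 in all 8.

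Trp53, the gene that encodes p53, did not separate the groups. Its level was 48.2, 57.4, 40.1 and 45.2 RPKM in the no-dox tumors, 44.2, 41.6, 45.4 and 44.9 in the off-dox tumors, and 49.8, 56.0, 40.4 and 47.9 in the plus-dox tumors. All 3 ranges overlapped. The log2 fold change, off-dox minus no-dox, was -0.08 ± 0.11 (SE, n = 4 and 4), with an adjusted p of 0.70 in edgeR's quasi-likelihood test. Reads from the induced transgene and from any endogenous alleles, of tumor or host cells, are counted together. The reporter dsRed is not among the counted genes, so these counts give no check of the dox labels.

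Off dox, 181 genes were higher and 54 lower than in tumors never given dox. These are 1.26% and 0.377% of the 14317 genes, called at a Benjamini-Hochberg adjusted p under 0.1 and a fold change over 1.5 in edgeR's quasi-likelihood test. The higher genes included nuclear noncoding RNAs, genes of NK-type and myeloid cells, and muscle genes. The lower genes of largest fold change were the keratins Krt71, Krt73 and Krt14, the prostaglandin receptor gene Ptger3, Aldh3a1, Barx2 and Lrg1, and at smaller folds they included a metallothionein and enzymes of mitochondrial amino acid and fatty acid breakdown. Krt71 and Krt73 met the RPKM limit through the no-dox tumors only. Most changes were modest: the median log2 fold change was 0.83 for the genes called higher and -0.67 for those called lower, against -0.02 over all 14317, and 55 higher and 6 lower genes differed by more than 2-fold. The 4 and 4 tumors did not overlap in 153 of the 181 and 51 of the 54, while 5.13% of all genes were separated upward and 7.59% downward. Because the genes were called on these same tumors, their separation follows largely from the selection and is not further support.

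The calls sat close to the threshold. Their adjusted p ran from 0.079 to 0.0996, with 0 genes under 0.05, although 3228 of the 14317 genes (22.5%) had an unadjusted p under 0.05 and 195 (1.36%) under 0.001. A further 349 genes passed the adjusted p with a smaller fold change, for totals of 346 higher (2.42%) and 238 lower (1.66%) at any fold. The count depended on the fit: it was 3 when the 8 tumors were fitted without the plus-dox tumors, 396 and 615 in DESeq2 with and without moderated fold changes (smallest adjusted p 1.79e-05 and 1.71e-05), and 641 in limma-voom. Leaving out off-dox tumor 1, whose values were often nearest to the no-dox range, raised the count to 789. Leaving out no-dox tumor 1, 2 or 4, off-dox tumor 2, 3 or 4, or plus-dox tumor 4 gave 0 calls, with 2391 to 3018 genes at an unadjusted p under 0.05. Without no-dox tumor 3 there was 1 call, and without plus-dox tumor 3 there were 19. Each of the 235 genes kept its direction and an unadjusted p under 0.05 without any single tumor. They had been selected from these same tumors at an unadjusted p of at most 0.0034 in edgeR's quasi-likelihood test. Keeping both was thus largely set by the selection and does not measure stability.

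**Figure D1:**
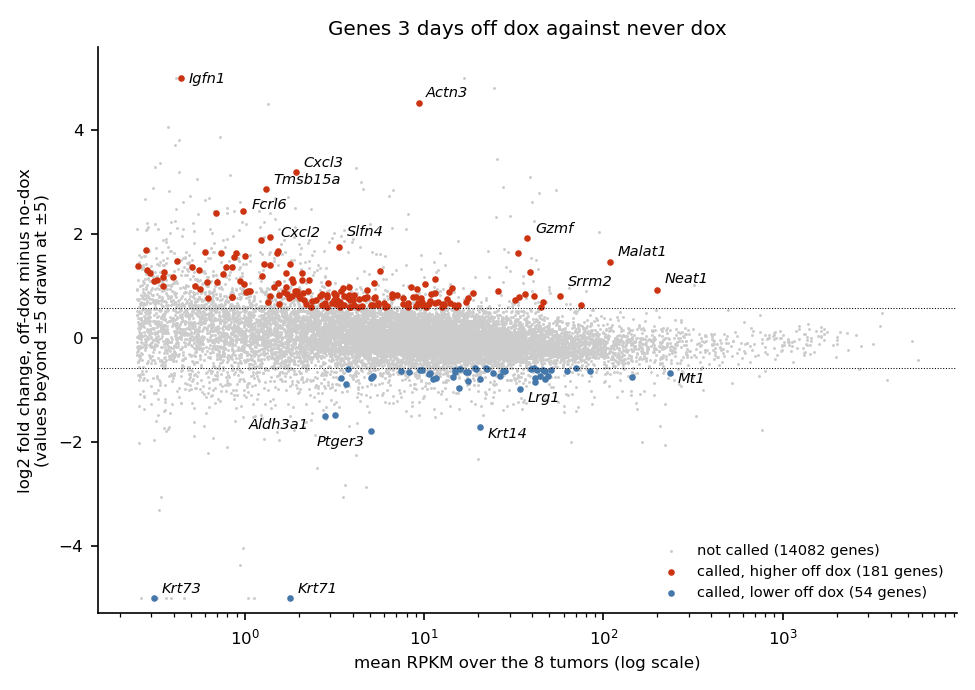
Each point is 1 of the 14317 genes, with its mean RPKM over the 8 tumors on the x axis (log scale) and its log2 fold change, off-dox minus no-dox, on the y axis. The 181 genes called higher lie mostly at low and middle levels, the 54 called lower at middle and high levels, and dotted lines mark a 1.5-fold change.

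Nuclear long noncoding RNAs were among the abundant genes called higher. Malat1 (chr19:5795690-5802671, minus strand, mm9), a transcript retained in nuclear speckles, was at 68.8, 72.8, 51.2 and 43.8 RPKM in the no-dox tumors and 121, 192, 143 and 181 in the off-dox tumors. Every off-dox tumor exceeded every no-dox tumor. The mean was 59.1 ± 13.9 (SD, n = 4) without dox and 159 ± 33.2 (SD, n = 4) off dox, a log2 fold change of 1.47 ± 0.27 (adjusted p = 0.079, edgeR's quasi-likelihood test). Neat1, the scaffold of paraspeckles and the next called gene along the chromosome (chr19:5842302-5845478), had 190, 111, 146 and 114 RPKM without dox and 179, 348, 295 and 211 off dox, where off-dox tumor 1 lay inside the no-dox range. Kcnq1ot1, an imprinted antisense transcript, rose from 0.461 ± 0.0443 to 0.946 ± 0.0949 RPKM (SD, n = 4 each) with no overlap. Of the 12 listed RNAs over the limits 4 were called higher and 0 lower, and their median log2 fold change was 0.53. With the share of reads on exons as a covariate none stayed called, and the fitted log2 fold changes of Malat1, Kcnq1ot1, Neat1 and Mir17hg were 0.43, 0.20, 0.23 and 0.04 in place of 1.47, 1.07, 0.91 and 0.98.

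Mir17hg, the host transcript of the miR-17-92 cluster, was the other called RNA of that list. It was at 3.12, 2.18, 2.96 and 2.14 RPKM without dox and 3.00, 6.82, 6.29 and 4.05 off dox, with off-dox tumor 1 again inside the no-dox range (log2 fold change 0.98 ± 0.25, adjusted p = 0.090 in edgeR's quasi-likelihood test). The poly(A) libraries count the host transcript, not the mature miRNAs cut from it. The 6 main products fall into 4 seed groups, and they are shown, from RefSeq (GRCm38.p6, chromosome 14), to make those groups visible, with the seed (bases 2 to 8) in capitals and miR-17-5p and miR-20a-5p sharing a seed, as do miR-19a-3p and miR-19b-3p:
miR-17-5p: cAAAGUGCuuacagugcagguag
miR-20a-5p: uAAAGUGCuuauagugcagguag
miR-18a-5p: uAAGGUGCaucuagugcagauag
miR-19a-3p: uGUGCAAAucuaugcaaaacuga
miR-19b-3p: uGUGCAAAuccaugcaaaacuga
miR-92a-3p: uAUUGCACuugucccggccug

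Of the genes of RNA processing, Srrm2 rose. Srrm2, a large speckle protein of the spliceosome, was at 49.1, 44.5, 37.0 and 39.4 RPKM without dox and 57.2, 88.5, 73.6 and 69.8 off dox. All off-dox tumors were higher, with a log2 fold change of 0.80 ± 0.16 (adjusted p = 0.081, edgeR's quasi-likelihood test), and 0.25 with the share of reads on exons as a covariate. It was the 1 called member among 28 SR proteins and splicing factors, and 4 of the 28 passed the adjusted p at any fold, Clk2 among them (log2 fold change 0.44 ± 0.10), a kinase of SR proteins. Without a correction 15 of the 28 had p under 0.05 upward and 0 downward, against 11.4% and 11.1% of all genes, and the list's median log2 fold change was 0.31. Outside the list the cyclin Ccnl1 and the proteins Nktr and Leng8, named after their values were seen, were called at log2 fold changes of 0.73, 0.78 and 0.84.

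Ogt, the enzyme that attaches O-GlcNAc to nuclear and cytosolic proteins, had one of the smallest adjusted p values. It was at 34.6, 29.9, 28.0 and 27.9 RPKM without dox and 39.5, 59.6, 55.0 and 52.7 off dox, with no overlap (log2 fold change 0.81 ± 0.13, adjusted p = 0.079, edgeR's quasi-likelihood test). Chromatin genes moved in part. The histone H3K4 methyltransferases Mll1 and Mll2 were called at 0.76 ± 0.17 and 0.68 ± 0.15. Of the 30 listed chromatin regulators 8 had p under 0.05 upward and 5 downward, against 11.4% and 11.1% of all genes. Tet2, which oxidizes methylcytosine, and the remodeler Chd7, both chosen after their values were seen, were called at 0.80 ± 0.13 and 0.72 ± 0.17.

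Among the 178 genes called higher that could be matched to a RefSeq type, 33 were not protein coding, so that 81.5% were coding against 96.0% over all genes. All 54 genes called lower were protein coding. Median exonic length was 3759 bases for the genes called higher, 1818.5 for those called lower and 2709 over all genes. The longest of 10 equal length bins (6032 bases or more) held 46 of the 181 higher calls and 0 of the 54 lower ones, and its median log2 fold change was 0.26, against -0.12 in the shortest. Length, the share of reads on exons and the direction of change thus moved together. With that share as a covariate 0 genes were called, and 232 of the 235 genes kept their direction, 26 of them with an unadjusted p under 0.05, but the share and the group cannot be told apart in these 8 tumors. Counting ignored strand, so reads of an antisense or overlapping gene could not be separated.

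**Figure D2:**
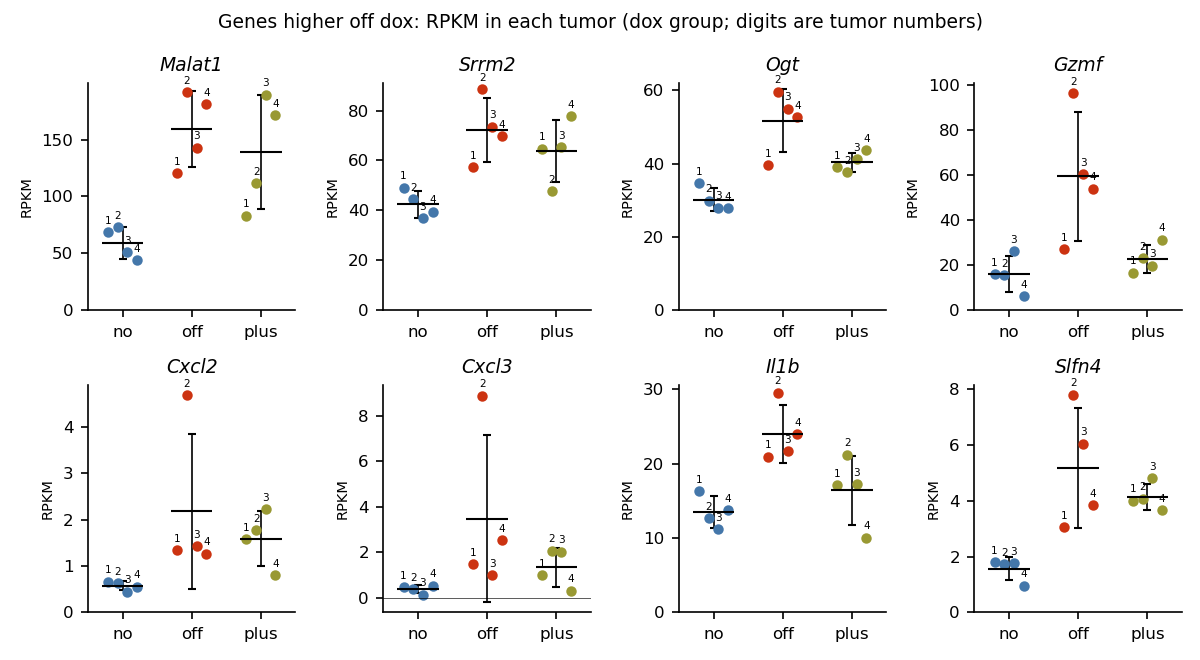
RPKM (linear axes) of 8 genes called higher, in the 4 no-dox, 4 off-dox and 4 plus-dox tumors, each point a tumor with its number, the bar the group mean and the whiskers 1 SD. In each panel the lowest off-dox tumor lies above the highest no-dox tumor, with off-dox tumor 2 highest for all 8 genes and far above the rest for Cxcl2 and Cxcl3.

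Some granzyme and NK receptor genes were called higher, and others were not. Granzymes are serine proteases that cytotoxic lymphocytes release into target cells. Gzmf (chr14:56824100-56830244) was at 15.9, 15.6, 26.1 and 6.26 RPKM without dox and 27.0, 96.4, 60.5 and 53.9 off dox. The lowest off-dox tumor was just above the highest no-dox tumor, and the log2 fold change was 1.93 ± 0.43 (adjusted p = 0.083, edgeR's quasi-likelihood test). Its neighbor Gzmg (chr14:56775418-56778416) was called at 1.63 ± 0.41. Gzmd and Gzme, nearly identical relatives in the same cluster, had log2 fold changes of 1.54 ± 0.46 and 0.84 ± 0.45 and were not called (adjusted p = 0.11 and 0.31), and reads may be split among these paralogs in ways the counting does not show. Gzma, Gzmb and Gzmc, at log2 fold changes of 1.72 ± 0.64, 1.92 ± 0.69 and 1.19 ± 0.39, and the NK receptor gene Ncr1, at 1.49 ± 0.48, were not called either (adjusted p = 0.17, 0.16, 0.14 and 0.13, edgeR's quasi-likelihood test), and their ranges overlapped.

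Of 14 T and NK cell genes over the limits, 3 were called higher (Nkg7, Klrd1 and Cd4) and 0 lower, all 14 had positive fold changes, and their median log2 fold change was 1.22. Nkg7, a granule membrane protein of cytotoxic cells, was at 0.326, 0.123, 0.385 and 0.332 RPKM without dox and 0.501, 0.915, 1.1 and 1.11 off dox, with no overlap. Klrd1, the CD94 chain of NK receptors, was at 1.05, 0.833, 0.843 and 0.249 against 0.862, 3.39, 2.80 and 2.29, and its ranges overlapped through off-dox tumor 1. Fcrl6, a cytotoxic lymphocyte receptor outside the list, rose from 0.312 ± 0.218 to 1.64 ± 0.692 RPKM (SD, n = 4 each). The T cell receptor genes stayed near the floor, with Cd3e at 0 in 3 of the 8 tumors and at most 0.0463 RPKM, and the summed level of the list was 10.6 to 21.2 RPKM without dox and 20.6 to 43.5 off dox. In bulk RNA, more cells of a type and more RNA per cell cannot be told apart.

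A few chemokine genes of the neutrophil axis were called higher. Of 20 CXC chemokines and receptors 3 were called (Cxcl2, Cxcl3 and Cxcr2), 7 had negative fold changes and the median log2 fold change was 0.12, and of 22 CC chemokines and receptors 0 were called, 1 having an unadjusted p under 0.05. Cxcl2 (chr5:91332925-91334964), a neutrophil attractant that signals through Cxcr2, was at 0.665, 0.635, 0.450 and 0.556 RPKM without dox and 1.34, 4.68, 1.43 and 1.26 off dox. Cxcl3 (chr5:91215129-91217116), a close relative, was at 0.465, 0.393, 0.137 and 0.533 against 1.49, 8.90, 1.00 and 2.53. Both were separated, with off-dox tumor 2 highest by far. The log2 fold changes were 1.95 ± 0.47 and 3.19 ± 0.78 (adjusted p = 0.088 and 0.089, edgeR's quasi-likelihood test), and without off-dox tumor 2 they were 1.26 and 2.16. Cxcl1, another ligand of the same receptor and more abundant than either, was at 25.9, 20.2, 18 and 26.6 RPKM without dox and 19.1, 23.8, 21.5 and 7.26 off dox, with overlapping ranges and a log2 fold change of -0.32 ± 0.39 (adjusted p = 0.66). Cxcl5, a further neutrophil attractant, overlapped as well, at 24.7, 31.5, 16.8 and 25.5 RPKM without dox and 23.6, 25.3, 15.3 and 6.73 off dox (-0.45 ± 0.37).

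These 3 genes lie on one stretch of chromosome 5, and the 250 bases before each start are shown because their levels differed in pattern while the windows share a site. The longest run of bases common to all 3 windows is GGGAATTTCCC, 11 bases in the form of a site for the inflammatory factor NF-κB, printed in capitals. The sequences are from RefSeq (GRCm38.p6), at chr5:90890995-90891244 for Cxcl1, chr5:90903649-90903898 for Cxcl2 and chr5:90785851-90786100 for Cxcl3, all on the plus strand:
Cxcl1: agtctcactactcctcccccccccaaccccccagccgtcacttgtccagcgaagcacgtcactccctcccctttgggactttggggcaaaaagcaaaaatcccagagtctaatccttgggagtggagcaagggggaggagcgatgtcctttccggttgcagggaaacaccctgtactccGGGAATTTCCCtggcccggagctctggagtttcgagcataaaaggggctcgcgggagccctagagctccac
Cxcl2: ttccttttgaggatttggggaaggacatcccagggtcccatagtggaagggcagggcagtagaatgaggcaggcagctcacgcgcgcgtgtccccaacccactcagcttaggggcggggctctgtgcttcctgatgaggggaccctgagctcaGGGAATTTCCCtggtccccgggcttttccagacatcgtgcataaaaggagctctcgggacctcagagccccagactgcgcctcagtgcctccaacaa
Cxcl3: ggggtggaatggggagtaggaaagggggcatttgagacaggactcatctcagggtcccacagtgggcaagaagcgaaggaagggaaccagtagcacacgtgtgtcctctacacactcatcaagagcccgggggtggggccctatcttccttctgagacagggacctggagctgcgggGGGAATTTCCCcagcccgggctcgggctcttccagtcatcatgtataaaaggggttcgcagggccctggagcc
The run begins 71, 97 and 73 bases before the start in Cxcl1, Cxcl2 and Cxcl3. Searched on both strands, it occurs in 14 (0.0426%) of the 32851 promoter windows of that length in the table. A looser NF-κB motif had been found in these windows before the run was taken from them, so its rarity is only a description. Among the genes called higher 140 had a window, and Cxcl2 and Cxcl3 were the 2 that held the run. They hold it by construction, since the run was taken from their windows. Of the 11312 genes over the limits with a window, 4 (0.0354%) held it.

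Cxcr2, the receptor for these ligands, and another receptor gene of neutrophils were called higher. Cxcr2 was at 1.48, 1.48, 1.22 and 1.30 RPKM without dox and 2.34, 2.49, 3.44 and 1.78 off dox, and Csf3r, the receptor for the neutrophil growth factor G-CSF, at 4.34, 4.47, 3.62 and 3.50 against 6.67, 6.58, 9.02 and 4.55. Neither overlapped, and the log2 fold changes were 0.90 ± 0.19 and 0.78 ± 0.17 (adjusted p = 0.083 for both, edgeR's quasi-likelihood test). They were the 2 called among 14 neutrophil genes, whose median log2 fold change was 0.40, but the granule genes S100a8 and S100a9 were not called (0.47 ± 0.30 and 0.33 ± 0.28), and the summed level of the list was 197 to 592 RPKM without dox and 179 to 302 off dox. Il1b, the inflammatory cytokine interleukin 1 beta, was at 16.3, 12.7, 11.2 and 13.7 RPKM against 20.9, 29.6, 21.7 and 24.0, all higher off dox. Slfn4, a myeloid schlafen gene, rose from 1.57 ± 0.411 to 5.18 ± 2.15 RPKM (SD, n = 4 each), with no overlap.

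Mertk, which macrophages use to engulf dying cells, was the 1 called gene of 23 macrophage and monocyte genes (log2 fold change 0.77 ± 0.19), whose median was 0.17. Their summed level, dominated by Spp1, was lower off dox, at 5356 to 6776 RPKM against 7583 to 8690. The fungal pattern receptors Clec7a and Clec4e, chosen after their values were seen, were called at 0.91 ± 0.20 and 1.25 ± 0.34.

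Skeletal muscle genes had the widest spread. All 28 listed genes over the limits had positive fold changes, and 18 had p under 0.05, against 11.4% of all genes upward. Their median log2 fold change was 2.47, but only Actn3 and Igfn1 were called. Actn3, the alpha-actinin of fast fibers, was at 1.28, 0.675, 0.864 and 0.323 RPKM without dox and 4.22, 26.1, 40.4 and 0.666 off dox, so that off-dox tumor 4 lay inside the no-dox range. Igfn1, a Z-disc protein, had 810 reads in the off-dox tumors, most of them in off-dox tumor 3, and 3 reads in the no-dox tumors, a ratio of 359 after division by the summed reads of each group (95% exact binomial interval of 123 to 1746, covering counting error only). Igfn1 met the RPKM limit through the off-dox tumors only, with a mean of 0.877 RPKM off dox and 0.00239 without dox. Ckm, the muscle creatine kinase, was not called and was at 6.13, 97.8, 172 and 1.84 RPKM off dox against 16.2, 6.31, 10.1 and 0.705 without. The summed level of the muscle list was 24.3 to 282 RPKM without dox and 24.4 to 1895 off dox. Among off-dox tumors it was high in tumors 2 (1175) and 3 (1895) only. In plus-dox tumors it was 227 to 696 RPKM, and the list's median log2 fold change, plus-dox minus no-dox, was 1.39. Stac3 and Jph1, parts of the calcium release machinery of muscle named after their values were seen, were called and were likewise highest in off-dox tumors 2 and 3.

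Other called genes with a listed role were few. Zeb1 and Zeb2, transcription factors that repress epithelial genes, rose by 0.67 ± 0.12 and 0.71 ± 0.19 on the log2 scale, 2 of 15 genes on the mesenchymal list, whose median was 0.27. The cyclic nucleotide phosphodiesterases Pde1b and Pde4a were separated and rose in mean RPKM from 1.16 ± 0.363 to 2.49 ± 0.446 and from 1.01 ± 0.126 to 2.05 ± 0.52 (SD, n = 4 each), 2 of 16 on their list. Notch2, the receptor, was called at 0.64 ± 0.16, and Col11a2, a fibrillar collagen chain, at 1.09 ± 0.28 from a level under 0.5 RPKM in every one of the 8 tumors.

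**Figure D3:**
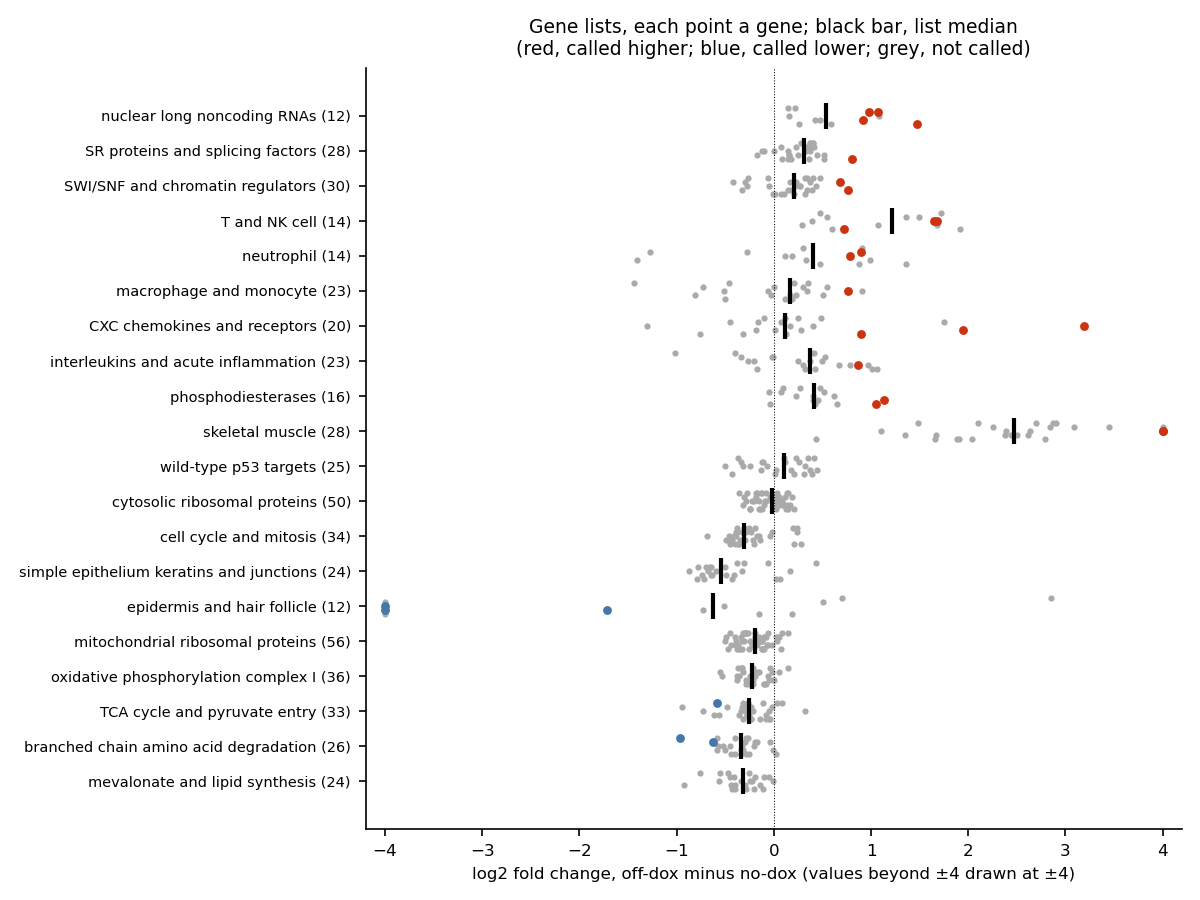
Log2 fold change, off-dox minus no-dox, of each gene (point) in 20 gene lists, with the number of genes over the limits in parentheses and the list median as a black bar. Muscle genes and T and NK cell genes lie to the right with medians of 2.47 and 1.22, and the lists of amino acid breakdown and the TCA cycle lie slightly left of 0 with medians of -0.33 and -0.26.

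Genes of metabolic enzymes were among those that fell. Propionyl-CoA carboxylase, the mitochondrial enzyme that takes up propionyl-CoA from isoleucine, valine and other substrates, has its subunits encoded by Pcca and Pccb, and both fell. Pccb (chr9:100882457-100935294) was at 25.4, 17.4, 17.4 and 23.7 RPKM without dox and 14.6, 9.25, 10.1 and 8.10 off dox. Pcca (chr14:122933550-123289166) was at 13.5, 11.6, 11.7 and 10.5 against 8.82, 7.42, 7.47 and 6.46. Neither gene overlapped, and the log2 fold changes were -0.97 ± 0.24 and -0.62 ± 0.13 (adjusted p = 0.088 and 0.082, edgeR's quasi-likelihood test).

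They were the 2 called genes of the 26 of branched chain amino acid degradation. At any fold 8 of the 26 passed the adjusted p downward, among them Oxct1, which uses ketone bodies (-0.58 ± 0.11), and 0 upward. The groups were separated downward in 15 of the 26, against 7.59% of all genes, and the list's median log2 fold change was -0.33. The plus-dox tumors had a median of -0.28 for these genes against the same no-dox tumors. The list follows a pathway named in the study of these tumors, so its direction is not independent evidence.

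Neighboring mitochondrial pathways leaned the same way by smaller amounts. Idh2, the mitochondrial NADP isocitrate dehydrogenase, was at 89.8, 93.0, 71.0 and 88.6 RPKM without dox and 70.6, 47.0, 53.9 and 51.7 off dox, just separated (log2 fold change -0.59 ± 0.14, adjusted p = 0.089, edgeR's quasi-likelihood test), the 1 called of 33 TCA cycle genes. Hadh, of fatty acid oxidation, was called at -0.61 ± 0.17. Over all genes, 11.1% had an unadjusted p under 0.05 downward and 11.4% upward. Of 36 genes of respiratory complex I 0 were called, 10 had p under 0.05 downward and 0 upward, and the median was -0.22, with Ndufv1 passing the adjusted p at -0.55 ± 0.10. Of 56 mitochondrial ribosomal protein genes 0 were called and 19 had p under 0.05 downward, with a median of -0.20, while the 50 cytosolic ribosomal protein genes had a median of -0.02. The antioxidant genes Sod1 and Cat passed the adjusted p at -0.54 ± 0.13 and -0.41 ± 0.09, below the fold limit.

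**Figure D4:**
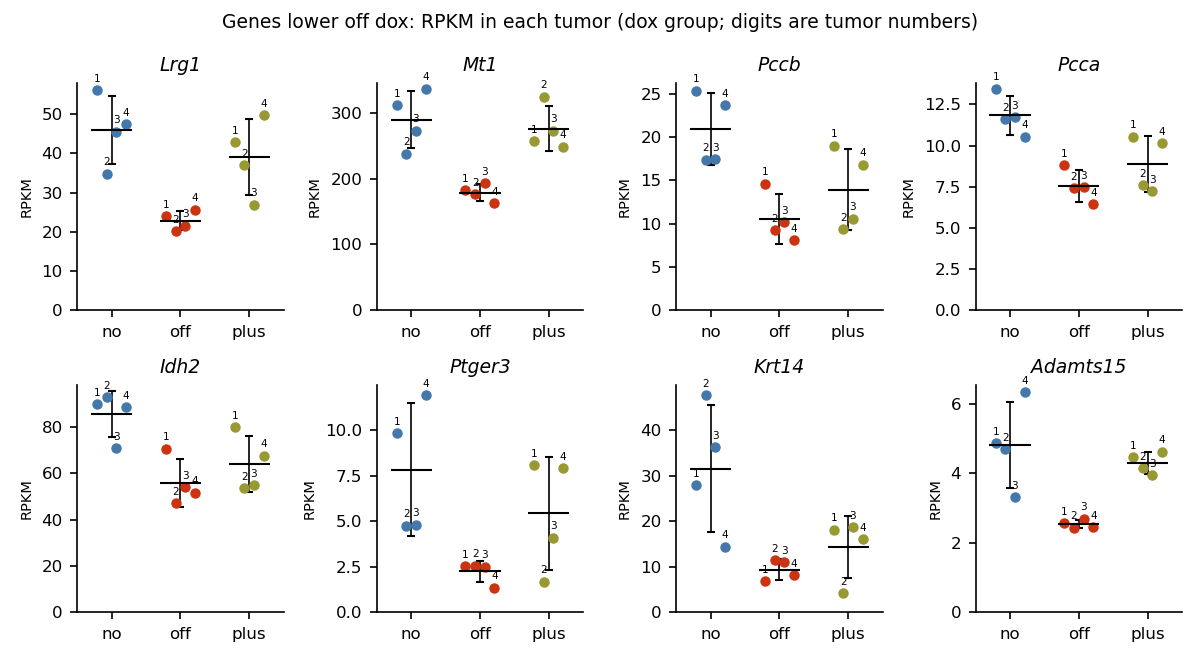
RPKM (linear axes from 0) of 8 genes called lower, in the 4 no-dox, 4 off-dox and 4 plus-dox tumors, each point a tumor with its number, the bar the group mean and the whiskers 1 SD. In every panel the highest off-dox tumor lies below the lowest no-dox tumor, and for Lrg1, Mt1 and Adamts15 the plus-dox mean stays close to the no-dox mean.

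Mt1, a metal-binding metallothionein, was the most abundant of the separated genes called lower. It was at 312, 238, 273 and 337 RPKM without dox and 182, 177, 193 and 163 off dox, with no overlap, while the plus-dox tumors had 257, 325, 273 and 249 (log2 fold change -0.67 ± 0.13, adjusted p = 0.079, edgeR's quasi-likelihood test). Its relative Mt2 was also separated, at 251, 177, 229 and 251 against 114, 147, 153 and 151 RPKM, but was not called (adjusted p = 0.11).

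Lrg1, a secreted glycoprotein of acute phase and vessel growth, was at 56.2, 34.8, 45.6 and 47.5 RPKM without dox and 23.9, 20.2, 21.6 and 25.7 off dox. The off-dox tumors were tightly grouped and all lower (-0.98 ± 0.18, adjusted p = 0.079, edgeR's quasi-likelihood test), and the plus-dox tumors, at 42.9, 37.0, 26.9 and 49.8, lay above every off-dox tumor. Adamts15, a protease of the matrix proteoglycan versican, fell from 4.81 ± 1.24 to 2.54 ± 0.117 RPKM (SD, n = 4 each), with 4.30 ± 0.308 in plus-dox tumors. The gap junction gene Gja1, chosen after its values were seen, fell by 0.78 on the log2 scale.

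Ptger3, a receptor for prostaglandin E2, was at 9.85, 4.76, 4.82 and 11.9 RPKM without dox and 2.55, 2.57, 2.52 and 1.36 off dox. It was separated, with a log2 fold change of -1.78 ± 0.46 (adjusted p = 0.091, edgeR's quasi-likelihood test). Aldh3a1, an aldehyde dehydrogenase, and Barx2, a homeobox factor of epithelia, were called at -1.51 ± 0.41 and -1.48 ± 0.38. Other separated and abundant genes called lower were the water channel Aqp1, annexin Anxa8, the ribophorin Rpn1 of N-glycosylation, the endosomal sorting gene Vps28 and the lysosomal membrane gene Laptm4b, at -0.63 to -0.84 on the log2 scale.

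Of 12 epidermal and hair follicle genes 3 keratins were called lower and 0 higher, 4 had positive fold changes, and the median was -0.62. Krt14, of basal cells, was at 27.9, 47.7, 36.3 and 14.4 RPKM without dox and 6.82, 11.5, 11.1 and 8.13 off dox, all lower. Krt71 and Krt73, of the hair follicle inner root sheath, are neighbors (chr15:101564380-101573528 and chr15:101623739-101632763) and were nearly without reads off dox. Krt71 had 1053 reads in the no-dox tumors and 5 in the off-dox tumors, a ratio of 158 scaled in the same way (interval 67.6 to 488), but no-dox tumor 1 alone stood at 13.4 RPKM and the other no-dox tumors at 0.0306 to 0.72. Krt73 had 182 reads against 1, again mostly from no-dox tumor 1. Krt71 and Krt73 met the RPKM limit through the no-dox tumors only. Krt27, another inner root sheath keratin, went the other way in 1 tumor, at 46.0 RPKM in off-dox tumor 4 against 0.0794 to 0.430 in the other off-dox tumors and 0.0647 to 5.58 without dox, and was not called (2.85 ± 1.88). The summed level of the list was 26.7 to 75.2 RPKM without dox and 15.4 to 70 off dox, within the no-dox range in off-dox tumor 4 and below it in the other off-dox tumors.

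Simple epithelial genes, which mark the carcinoma itself, were not called. Of 24 such genes 20 had negative fold changes and 2 had p under 0.05 downward, against 11.1% of all genes, with a median log2 fold change of -0.55. Epcam, an adhesion molecule of epithelia, was at 204, 388, 166 and 241 RPKM without dox and 265, 160, 72.3 and 40.9 off dox, and Cdh1 was likewise lowest in off-dox tumors 3 and 4. Their part, and that of the muscle genes, in the other differences was not tested.

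Targets of wild-type p53 showed no common shift. Of 25, 0 were called in edgeR's quasi-likelihood test, and the median log2 fold change was 0.10. Without a correction 1 had p under 0.05 upward and 3 downward, against 11.4% and 11.1% of all genes. By PCR and sequencing, the study found only the mutant p53 sequence in KCip53 lines and reported the wild-type sequence lost. That check was made on cell lines, whereas bulk tumor RNA also holds host cells. Zmat3, an RNA-binding target, was at 2.84, 3.12, 2.76 and 3.03 RPKM without dox and 3.51, 3.90, 3.68 and 4.53 off dox, and Ei24 at 43.5, 34.5, 40.3 and 41.7 against 31.0, 30.2, 30.7 and 29.7, both separated in opposite directions and under the fold limit (0.44 ± 0.11 and -0.37 ± 0.10). Cdkn1a, the p21 inhibitor of cell cycle kinases, was at 21.3, 23.9, 25 and 25.1 RPKM without dox and 33.4, 31.1, 24.2 and 34.4 off dox (0.40 ± 0.20, adjusted p = 0.28), overlapping through off-dox tumor 3. Mdm4, an inhibitor of p53, was called higher, at 12.1, 8.72, 9.81 and 9.60 RPKM against 13.5, 17.7, 18.3 and 12.7 (0.66 ± 0.15, adjusted p = 0.084, edgeR's quasi-likelihood test). Of 34 cell cycle genes 0 were called and 10 had p under 0.05 downward, against 11.1% of all genes. Their median was -0.30, with Cdk4 and Mcm7 passing the adjusted p at -0.48 ± 0.12 and -0.41 ± 0.10.

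The plus-dox tumors give a reference for these levels. For the 181 genes called higher the median log2 fold change, plus-dox minus no-dox, was 0.57, and for the 54 called lower it was -0.45. The comparisons share the 4 no-dox tumors, so the values are set side by side only. Gzmf was at 16.6, 23.2, 19.7 and 31.3 RPKM in plus-dox tumors, nearer to the no-dox level, whereas Malat1 was at 83.2, 112, 189 and 172, nearer to the off-dox level. Gzmf does not stand for the T and NK cell list. The summed level of that list was 22.1 to 40.3 RPKM in plus-dox tumors, above every no-dox tumor and within the off-dox range. By the same edgeR quasi-likelihood fit, plus-dox against no-dox gave 0 calls (0.0%, smallest adjusted p 0.32), with 2067 genes (14.4%) at an unadjusted p under 0.05. Off-dox against plus-dox also gave 0 calls (0.0%), with 416 genes (2.89%) at an unadjusted p under 0.05. The study, with DESeq2 at the same limits of adjusted p and fold, reported marked differences. It placed the most significant ones between no-dox and plus-dox tumors, unlike the counts here. The study also reported that the profile set by mutant p53 was not reversed when the mutant was switched off. No other tool was run here on the comparisons with plus-dox tumors, so the 0 calls hold for the edgeR fit only. A difference between the off-dox and plus-dox changes was not tested beyond the edgeR fit.

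**Figure D5:**
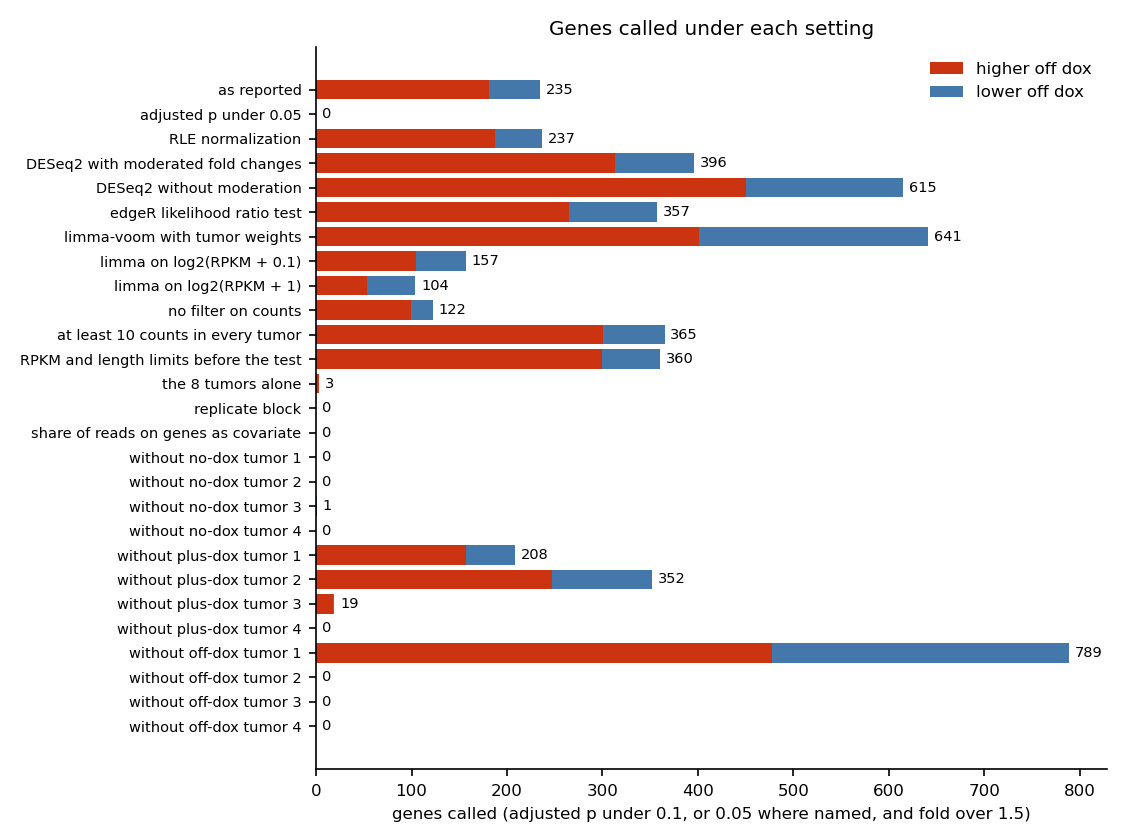
Number of genes called off-dox against no-dox (x axis) under each setting of the analysis (rows), split into higher and lower. The count of 235 becomes 0 under 10 of the settings, among them most that leave out a no-dox or off-dox tumor, and 789 without off-dox tumor 1.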

How the data were processed

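Poly(A), unstranded libraries of bulk tumor RNA were sequenced as single-end reads and, per the labels and the study's methods, mapped by the authors to mm9 with TopHat 1.4.1 and Bowtie 0.12.8. The authors deposited estimated counts per gene over unambiguous RefSeq exonic spans (58.2% of values are not whole), which were rounded here. The authors also deposited RPKM per gene, scaled by exon length and mapped reads. RPKM was used for levels and limits.

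Counts of all 12 tumors were fitted by group with edgeR 4.0.16 (TMM, quasi-likelihood test, R 4.3.3) for genes with at least 10 summed reads (17561 of 22630). Genes were called at a Benjamini-Hochberg adjusted p under 0.1 over all tested genes, fold over 1.5, mean RPKM over 0.25 in the 8 tumors and exons over 250 bases. Log2 fold changes are given ± SE. Counted reads per tumor, 19845923 to 33137609, set the counting precision. The self-test on simulated counts recovered most 4-fold changes in well-counted genes. It held no change under 2-fold, no changed gene of low count and no difference in the share of reads on exons. Many called genes therefore lie outside what it covers. Groups came from the sample titles. Single values were compared by exact permutation over the 70 arrangements of 4 and 4 tumors.

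Genes were named by rule: Trp53; among called genes whose groups did not overlap, the 12 largest changes in each direction and the 6 most abundant; and for each gene list its called members (up to 4), its 2 most abundant and its 2 of smallest p. Fewer are printed, and genes outside the rule are said to be chosen after their values were seen or serve as comparison beside a named gene. The comparison and the lists were chosen with earlier results of these data known. Alternatives used DESeq2 1.42.0, limma 3.58.1, other filters, covariates and left-out tumors. RefSeq sequences (GRCm38.p6) were matched by symbol or synonym, and 11312 of the 14317 genes had a promoter window. Files were processed with Python 3.11.15. One allele of the animal of origin and one gene are not reported here.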

Additional observations from a re-analysis of the deposited data

Results flagged for a closer look

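A tumor was set far from the other 3 of its group (Dixon's test at the 95% level) in 15 of 246 group-by-measure checks, and chance gives about 1 in 20. In the no-dox group, tumor 1 was high for the hair follicle keratins Krt71 (13.4 RPKM) and Krt73 (2.11), tumor 2 was high for Rpn1 (91.2) and tumor 4 was high for Notch2 (14.4) and low for Slfn4 (0.951). In the off-dox group, tumor 2 was high for Cxcl2 (4.68 RPKM), tumor 3 for Igfn1 (3.14) and tumor 4 for Pde4a (2.82), while tumor 4 was low for Ptger3 (1.36). Off-dox tumor 1 was the one with any Krt73 (0.0189 RPKM), was high for Gja1 (38.7) and was low for Mt2 (114.0). Off-dox tumor 4 had the highest summed levels of the endothelium list (147.0 RPKM) and of the epidermis and hair follicle list (70), and off-dox tumor 3 of the pericyte and smooth muscle list (177.0).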

How the results depend on the processing

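All 235 called genes kept their direction under every alternative that gave them a value, except 3 with the share of reads on genes as covariate. The genes were selected on these same tumors, so a kept direction is little evidence of stability. The count moved more. It was 237 with RLE normalization and 157 with limma on log2(RPKM + 0.1). It was 396 (313 higher, 83 lower) and 615 (450 and 165) in DESeq2 with and without moderated fold changes, 357 in edgeR's likelihood ratio test, 641 (401 and 240) in limma-voom with tumor weights and 104 (53 and 51) with limma on log2(RPKM + 1). It was 122 with no filter on counts, 365 with at least 10 counts in every tumor and 360 with the RPKM and length limits applied before the test. It was 3 with the 8 tumors fitted alone, 0 at an adjusted p under 0.05 and 0 with the covariate (167 genes with unadjusted p under 0.05). Leaving out 1 tumor at a time gave 0 to 789.

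Same-numbered no-dox and off-dox tumors did not deviate together (correlations of -0.18, 0.19, 0.01 and -0.08 across genes), so the numbers do not pair the tumors. A replicate block gave 0 calls, with 2893 genes at an unadjusted p under 0.05. The cause of these changes was not tested, except that fewer genes tested or fewer tumors change the adjustment and the spread by construction.

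The log2 fold change of Trp53, -0.08, ranged from -0.14 to 0.00 (0.0028 without no-dox tumor 2) with 1 tumor left out and was 0.11 with the covariate, and that of Ckm became -0.067 with the covariate. Without no-dox tumor 1 the fitted log2 fold changes of Krt71 and Krt73 were -3.57 and -4.32 in place of -7.13 and -6.54, without off-dox tumor 3 that of Igfn1 was 5.37 in place of 8.19 and that of Actn3 3.75 in place of 4.53. List medians moved by less than the spread between tumors in 802 of 812 comparisons. These cover RLE normalization, the 8 tumors alone and each tumor left out, and were not computed under the covariate or the other tools. Leaving out 1 tumor can hardly move a median by more than that spread, so the count does not measure stability. The median of the interferon-stimulated genes ran from -0.35 to 0.11, and that of the T and NK cell genes from 1.01 to 1.44. The depth of 19845923 to 33137609 reads leaves genes with under 10 reads in a whole group, such as Krt73 off dox and Igfn1 without dox, with wide intervals.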

Other observations

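Several lists outside the main accounts leaned to one side with 1 call among them in edgeR's quasi-likelihood test. All 24 genes of mevalonate and lipid synthesis had negative fold changes off dox, with a median log2 fold change of -0.32. Of these, 8 had an unadjusted p under 0.05, against 11.1% of all genes downward. Of 18 adipocyte genes 17 were negative with a median of -0.83, and their summed level was 133 to 1303 RPKM without dox and 140 to 433 off dox. Of 12 genes of pericytes and smooth muscle 10 were positive, with a median of 0.51, and 4 had an unadjusted p under 0.05 upward, against 11.4% of all genes. Of 27 alcohol, aldehyde and aldo-keto reductases Aldh3a1 was called lower, 4 passed the adjusted p downward, among them Adh5 at -0.52 ± 0.11, and the median was -0.26.

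Bcl2l11, which encodes the death-promoting protein Bim, was separated upward, at 7.03, 7.70, 7.47 and 9.39 RPKM without dox and 10.4, 11.9, 11.3 and 12.4 off dox, and passed the adjusted p under the fold limit (0.57 ± 0.13, adjusted p = 0.083 in edgeR's quasi-likelihood test). Per3 and Gcat were chosen after their values were seen. Per3, of the circadian clock, was called higher, at 2.23, 1.48, 1.77 and 2.15 RPKM without dox and 3.35, 3.41, 3.21 and 2.46 off dox. Gcat, of threonine breakdown, was called lower, at 6.67, 7.75, 6.01 and 5.32 against 4.56, 3.42, 3.53 and 3.22.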
